A study of Homo sapiens with 12 samples.

Results

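The PML bodies and H3.3 chaperones were followed at the RNA level in HL60 cells as a group of 10 genes, chosen by name from general knowledge of these proteins, of the 59251 genes in the count table. The group held the PML body proteins PML and SP100, the H3.3 chaperone DAXX with its partner ATRX, the HIRA complex genes HIRA, UBN1, UBN2 and CABIN1, and the paralogues ASF1A and ASF1B. HL60 is a human myeloid leukemia line, which the series' text calls promyelocytic and the study describes as lacking the PML-RARA fusion. The cells were exposed for 48 h to all-trans retinoic acid (ATRA, 1 µM), to the CDK4/6 inhibitor palbociclib (CDK4/6i, 1 µM) or to both drugs together (CDK4/6i+ATRA, 1 µM each), and non-treated cells were the controls. RNA-Seq gave 12 libraries, 3 for each of the 4 groups. The labels call them biological replicates, and the study speaks of independent experiments for gene set scores from its RNA-Seq. Separate cultures are not spelled out, so p-values measured the spread between these libraries, of which a part may be technical.

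Total counts were 15392648 to 16935515 in non-treated libraries, 15238994 to 17010052 with ATRA, 15576806 to 18679544 with CDK4/6i and 12230923 to 14415276 with CDK4/6i+ATRA. Levels are TMM-normalized CPM, which set libraries of different depth and composition on a common scale of relative amounts. At these depths, 3 counts corresponded to 0.156 to 0.275 CPM. Counts were per gene, so isoforms of PML or SP100 were not separated, and RNA says nothing directly of PML protein or of the number and size of PML bodies. In bulk RNA, fewer cells with a transcript and less of that transcript per cell cannot be told apart.

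PML bodies are nuclear condensates that form around the PML protein through its modification by SUMO and take up SP100, DAXX and many other proteins. H3.3 is the histone H3 variant that is placed on chromatin outside DNA replication, by DAXX with ATRX mainly at repeats and heterochromatin and by the HIRA complex mainly at active genes. ASF1A and ASF1B hand histones H3 and H4 to such complexes, ASF1A mostly to HIRA and ASF1B mostly in proliferating cells, and PML and SP100 are both inducible by interferon.

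The labelled cell type was checked against 8 myeloid markers, of which 5 were detected, with MPO the most abundant over all libraries (527060 counts). The summed CPM of these markers averaged 7092 in non-treated cells and 1517, 4169.8 and 1857 in the ATRA, CDK4/6i and CDK4/6i+ATRA groups. MPO fell from 6517 CPM in non-treated cells to 28.0 with CDK4/6i+ATRA, while ITGAM rose from 9.25 to 589.5, SPI1 from 302 to 855.1 and CEBPE from 169.55 to 285, and CD33 was not called (93.9 and 99.8 CPM). ELANE, PRTN3 and AZU1 were at 0 counts in every library, and each is listed on 1 alternate contig besides chromosome 19, a feature that DAXX shares and that is taken up with that gene. The epithelial markers had 1 count and the fibroblast markers 11 counts over all libraries. Summed T cell markers were at 0.550 to 3.10 CPM and summed B cell markers at 12.6 to 24.97 CPM per library, the latter mostly CD79A (3771 counts over all libraries), while MS4A1 was at 0.

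All 10 genes passed the filter on low counts and were tested among 13318 genes. A gene was called at an adjusted p under 0.05 in edgeR's quasi-likelihood test, and "higher" and "lower" below refer to such calls. With ATRA against non-treated cells, 4 of the 10 genes were higher (32.1% of all tested genes were) and 3 lower (35.5% of all tested genes). With CDK4/6i, 3 were higher against 28.3% of all tested genes and 5 lower against 27.9%. With CDK4/6i+ATRA, 2 were higher against 41.0% and 7 lower against 40.7%. These comparisons share the non-treated libraries. Between the treated groups, adding ATRA to CDK4/6i left 3 of the genes higher (39.1% of all tested genes) and 5 lower (39.5%), and adding CDK4/6i to ATRA left 3 higher (36.9%) and 6 lower (32.8%). The interaction is the log2 effect of both drugs minus the sum of the log2 effects of each, and it was positive for 3 of the genes (24.5% of all tested genes) and negative for 5 (27.0%).

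The direction of the smaller changes depended on the scaling. TMM assumes that most genes do not change, whereas 41.0% of tested genes were called higher and 40.7% lower with CDK4/6i+ATRA than in non-treated cells. Neither TMM nor library size gives amounts per cell. The TMM factors were 0.840 to 0.893 in the CDK4/6i+ATRA libraries and 1.03 to 1.07 in all others. Scaling by library size alone shifted the median log2 fold change of all tested genes from 0.02 to -0.25 for CDK4/6i+ATRA compared to the non-treated cells, from 0.00 to -0.28 against CDK4/6i, from 0.04 to -0.26 against ATRA and from -0.02 to -0.34 for the interaction. The share of called genes that were higher then fell from 49.8% to 36.7% against CDK4/6i, from 53.0% to 31.6% against ATRA and from 47.5% to 18.5% for the interaction. Among the 10 genes, the higher and lower calls became 1 and 7 against CDK4/6i, 1 and 7 against ATRA, and 0 and 6 for the interaction. Of all 13318 tested genes, 10359, 9368 and 7436 were then called in either direction, in the same order. The genes whose direction turned in these 3 comparisons were ATRX, UBN2, ASF1A, SP100 and UBN1, and DAXX became a lower call against ATRA.

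**Figure D1:**
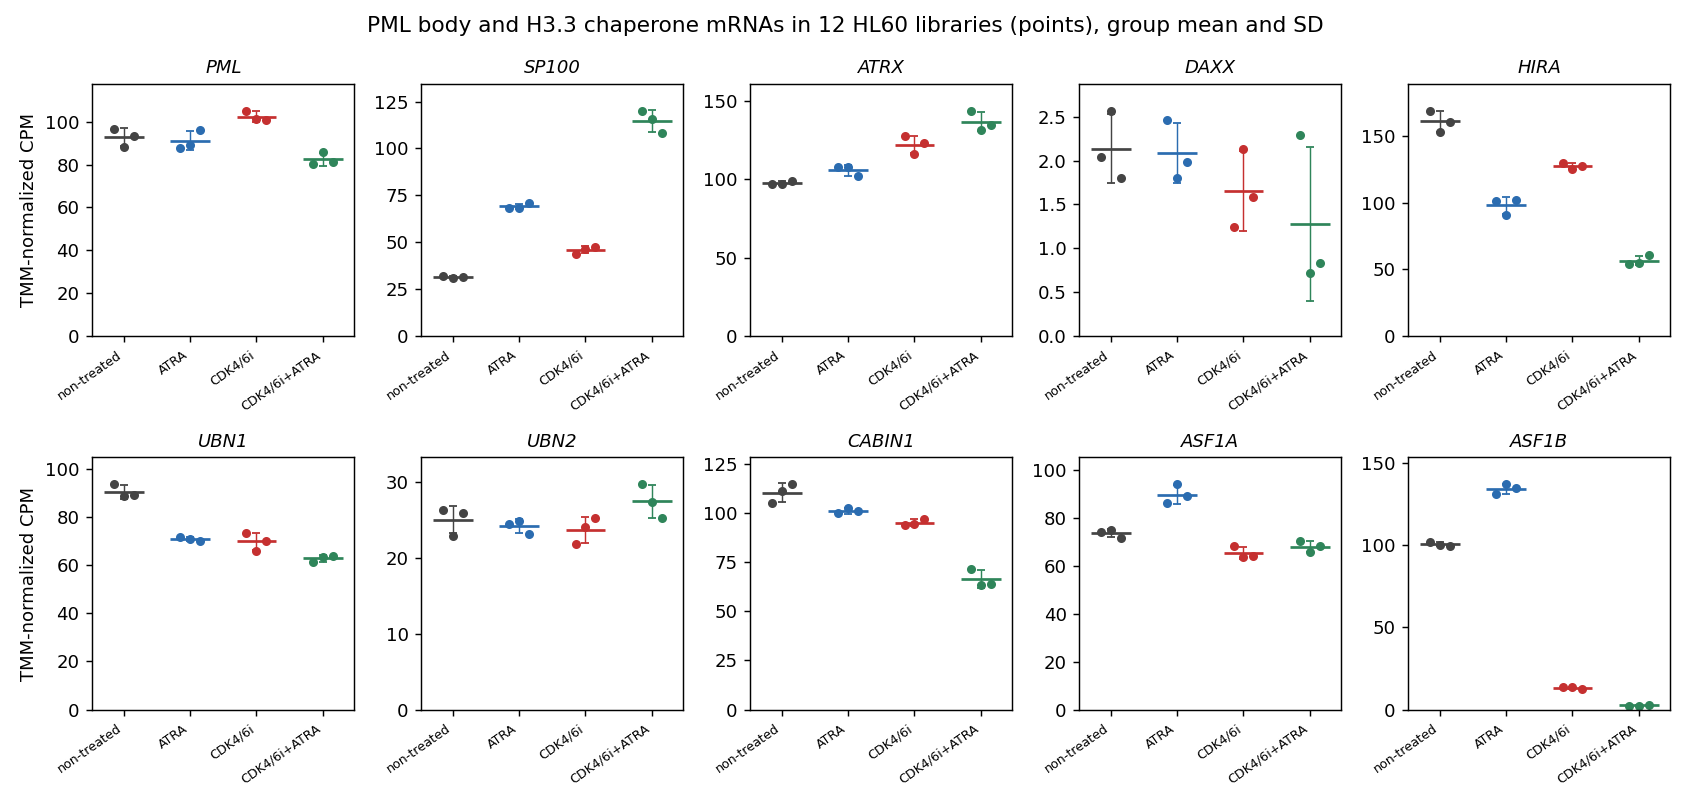
TMM-normalized CPM of the 10 genes in each of the 12 libraries (points, 3 per group), with the group mean (line) and SD (bar) and each vertical axis starting at 0. SP100 stood between 109 and 120 CPM with CDK4/6i+ATRA against 31.0 to 32.2 in non-treated libraries, and ASF1B between 2.32 and 2.97 CPM against 99.7 to 102.

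PML (chr15:73994716-74047827, hg38, + strand) encodes the protein that builds the body. PML was at 96.6, 88.2 and 93.4 CPM in non-treated libraries, 87.9, 89.4 and 96.4 with ATRA, 105, 101 and 101 with CDK4/6i, and 80.4, 85.8 and 81.3 with CDK4/6i+ATRA. All CDK4/6i libraries lay above and all CDK4/6i+ATRA libraries below those of every other group, while non-treated and ATRA libraries overlapped. PML was 1.10-fold higher with CDK4/6i than in non-treated cells (log2 fold change 0.14 ± 0.0453, SE, edgeR adjusted p = 0.00608). With CDK4/6i+ATRA it was lower than in non-treated cells (-0.17 ± 0.0487, edgeR adjusted p = 0.00160) and than with CDK4/6i (-0.31 ± 0.0481, edgeR adjusted p = 1.04e-07). The change with ATRA alone was not called (-0.02, 95% interval -0.12 to 0.07, and 0.0180 with library size alone). The ATRA effect on PML differed with and without CDK4/6i, with an interaction of -0.29 ± 0.0665 (edgeR adjusted p = 0.000244). The CDK4/6i call was lost without non-treated replicate 2 (log2 fold change 0.11) or CDK4/6i replicate 1 (0.12), and the difference from ATRA (-0.15) was not called without ATRA replicate 3 (-0.11). The falls with CDK4/6i+ATRA were larger with library size alone, at -0.43 against non-treated cells, -0.59 against CDK4/6i and -0.45 against ATRA, with an interaction of -0.61, all called. With no filter PML was at -0.28 against non-treated cells and -0.24 against ATRA.

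SP100 (chr2:230416201-230545606, hg38, + strand), a SUMO-modified resident of the bodies, was the member with the largest rise. SP100 was at 32.2, 31.0 and 31.4 CPM in non-treated libraries, 68.5, 68.0 and 70.8 with ATRA, 43.9, 46.3 and 47.6 with CDK4/6i, and 120, 116 and 109 with CDK4/6i+ATRA. No group overlapped another, and the order was non-treated, CDK4/6i, ATRA and CDK4/6i+ATRA. SP100 rose 2.19-fold with ATRA (log2 fold change 1.13 ± 0.0551, SE, edgeR adjusted p = 6.24e-24) and 1.46-fold with CDK4/6i (0.54 ± 0.0577, edgeR adjusted p = 1.90e-11). With both drugs it rose 3.64-fold (1.86 ± 0.0544, edgeR adjusted p = 9.71e-34), which was also higher than with ATRA alone (0.73 ± 0.0491, and 0.43 with library size alone) or CDK4/6i alone (1.32 ± 0.0514). The interaction was small (0.19 ± 0.0760, edgeR adjusted p = 0.0336), was not called with DESeq2 or its size factors (both 0.17) or with no filter (0.10), had the opposite sign with library size alone (-0.13, not called) and was lost when any 1 of 8 libraries was left out (0.15 to 0.19), namely replicates 1 and 3 of non-treated cells or replicates 1 and 2 of any treated group. Exons of SP100 overlap the opposite-strand LOC101928816 (37 counts over all libraries) and the same-strand HMGB1P3 (11 counts), against 11487 counts for SP100.

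The bases before the start sites are shown for the genes whose group means of log2 CPM spanned at least 1 (SP100, HIRA and ASF1B) and for ASF1A as the paralogue of ASF1B. RefSeq windows (GRCh38.p14) matched 7 of the 10 genes, and PML, ATRX and DAXX are given by name only. Each window holds the 250 bases before the start site, 5′ to 3′ on the gene's strand. Capitals mark matches, on either strand, to 4 motifs, and matches did not overlap. The motifs were the interferon response element core GAANNGAAA, held by 6.56% of 35116 such windows, the E2F core GGCGGGA (13.5%), the CCAAT box CCAAT (32%) and the cell cycle genes homology region (CHR) core TTTGAA (13.3%). The SP100 window was chr2:230415951-230416200 (+), the HIRA window chr22:19431734-19431983 (-), the ASF1A window chr6:118893902-118894151 (+) and the ASF1B window chr19:14136590-14136839 (-).
SP100: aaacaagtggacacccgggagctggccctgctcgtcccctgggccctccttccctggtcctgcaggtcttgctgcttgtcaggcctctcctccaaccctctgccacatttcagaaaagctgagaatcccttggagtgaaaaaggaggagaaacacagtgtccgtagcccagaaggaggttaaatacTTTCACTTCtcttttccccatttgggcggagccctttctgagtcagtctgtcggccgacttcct
HIRA: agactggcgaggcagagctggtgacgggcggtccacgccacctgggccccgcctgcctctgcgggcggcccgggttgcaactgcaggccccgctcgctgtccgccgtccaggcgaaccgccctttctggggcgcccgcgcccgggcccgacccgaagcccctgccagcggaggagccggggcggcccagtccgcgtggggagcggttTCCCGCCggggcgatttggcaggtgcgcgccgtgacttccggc
ASF1A: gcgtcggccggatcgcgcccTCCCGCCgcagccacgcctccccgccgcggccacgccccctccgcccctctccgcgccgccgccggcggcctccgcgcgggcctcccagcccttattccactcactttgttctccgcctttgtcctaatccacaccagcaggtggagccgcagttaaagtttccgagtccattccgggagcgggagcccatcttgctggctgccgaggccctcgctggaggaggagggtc
ASF1B: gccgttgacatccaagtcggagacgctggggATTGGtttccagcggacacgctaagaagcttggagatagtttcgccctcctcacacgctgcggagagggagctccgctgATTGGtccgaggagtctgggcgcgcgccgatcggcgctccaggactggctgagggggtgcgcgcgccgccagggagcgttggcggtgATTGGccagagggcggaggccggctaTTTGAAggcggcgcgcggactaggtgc
The SP100 window shown held the interferon element once, at position -64 from the start site and on the opposite strand. RefSeq gives SP100 a second start site, whose window (chr2:230416506-230416755, not shown) held no interferon element and 1 CHR core at -78. HIRA and ASF1A each held the E2F core once, at -43 and -230. ASF1B held 3 CCAAT boxes at -219, -140 and -53 and the CHR core at -27, and not the letters GGCGGGA. These matches are descriptions of letters and no factor's binding was measured.

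ATRX (chrX:77504880-77786216, hg38, - strand), the chromatin remodeler that works with DAXX, was at 96.7, 96.8 and 99.1 CPM in non-treated libraries, 107, 108 and 102 with ATRA, 127, 116 and 123 with CDK4/6i, and 144, 132 and 135 with CDK4/6i+ATRA. The 4 groups did not overlap and stood in that order, with the highest libraries those given both drugs. ATRX rose 1.25-fold with CDK4/6i (log2 fold change 0.33 ± 0.0433, SE, edgeR adjusted p = 7.47e-09) and 1.40-fold with CDK4/6i+ATRA (0.49 ± 0.0446, edgeR adjusted p = 5.01e-14), the latter 0.22 and still called with library size alone. The rise with ATRA alone was 1.08-fold (0.11 ± 0.0439, edgeR adjusted p = 0.0197), and it was not called with no filter (0.10) or without non-treated replicate 1 (0.11) or 2 (0.11) or ATRA replicate 1 (0.10) or 2 (0.10). Against CDK4/6i alone, CDK4/6i+ATRA was higher by 0.16 ± 0.0435, but not called with no filter (0.06) and lower with library size alone (-0.12). Against ATRA alone it was higher by 0.37 ± 0.0442, which was not called with library size alone (0.07). The interaction for ATRX was not called (0.05, 95% interval -0.08 to 0.17), and with library size alone it was negative and called (-0.27).

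DAXX (chr6:33318558-33322959, hg38, - strand), the chaperone that binds H3.3, had only 343 counts over all 12 libraries. DAXX had 34, 41 and 32 counts in non-treated libraries, 40, 31 and 36 with ATRA, 24, 35 and 27 with CDK4/6i, and 25, 8 and 10 with CDK4/6i+ATRA. As CPM these were 2.04, 2.57 and 1.80, then 2.47, 1.81 and 1.99, then 1.24, 2.14 and 1.58, and then 2.29, 0.713 and 0.826. Every pair of groups overlapped, and CDK4/6i+ATRA replicate 1 stood among the non-treated libraries while replicates 2 and 3 lay below all others. The fall with CDK4/6i+ATRA compared to the non-treated cells (log2 fold change -0.75 ± 0.338, SE, edgeR adjusted p = 0.0380) was the only call for DAXX. It was not called with DESeq2 (-0.74), with only the groups compared (-0.75), or without non-treated replicate 1 (-0.79) or 2 (-0.61) or CDK4/6i+ATRA replicate 2 (-0.48) or 3 (-0.51). Leaving out CDK4/6i+ATRA replicate 1 instead gave -1.46 against non-treated cells and made the differences from ATRA (-1.42 in place of -0.72) and from CDK4/6i (-1.08 in place of -0.38) calls. The difference from ATRA was also called without ATRA replicate 2 (-0.82) and with DESeq2's size factors (-0.74), library size alone (-1.02), no filter (-0.82) or only the groups compared (-0.79).

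The low DAXX count stands beside low counts of many genes listed on the same contigs. The table gives DAXX exons on chromosome 6 and on 4 alternate contigs, which are other versions of the same region, so that the deposited length of 12794 bases holds 2558 on chromosome 6. Of 130 protein-coding genes listed on every contig that lists DAXX, 89 had under 1 count per library on average, and the median was 0 counts over all libraries, below the 343 of DAXX. Over the whole table, protein-coding genes listed on primary chromosomes only had a median of 432 counts (17988 genes), those also on alternate contigs 0.5 (852 genes) and those also on fix patches 131.5 (636 genes). The ribosomal protein gene RPS18, listed on 5 alternate contigs, had 8 counts, whereas RPL3, listed on none, had 603866, a pair chosen after their values were seen. How reads that match several contigs were counted is not given in the sources used here, so the DAXX level cannot be compared with that of other genes and its part in the DAXX differences was not tested. CABIN1 has 401 bases on 1 alternate contig besides 8086 on chromosome 22, and ASF1B is listed again in full on 1 fix patch, so that its deposited length of 3378 bases is 1689 counted again.

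**Figure D2:**
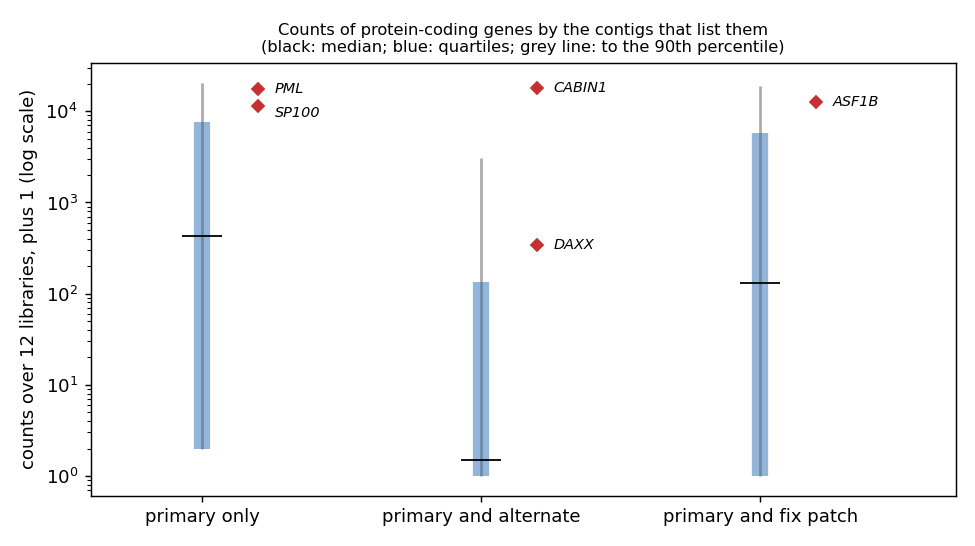
Counts over all 12 libraries, plus 1, on a log axis, for protein-coding genes listed on primary chromosomes only, also on alternate contigs or also on fix patches (black line, median; blue bar, quartiles; grey line, to the 90th percentile), with 5 of the 10 genes as diamonds. DAXX, at 343 counts, lay above the quartiles of its class, whose median was 0.5, while CABIN1 had 18022 counts and ASF1B 12766, beside 17607 for PML and 11487 for SP100.

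HIRA (chr22:19330698-19431733, hg38, - strand), the scaffold of the complex that places H3.3 at active genes, was the member that fell most after ASF1B. HIRA was at 169, 154 and 161 CPM in non-treated libraries, 101, 90.7 and 102 with ATRA, 130, 126 and 127 with CDK4/6i, and 54.0, 55.1 and 60.7 with CDK4/6i+ATRA. The 4 groups did not overlap, and every CDK4/6i+ATRA library was below every library of the other groups. HIRA fell to 60.9% of its non-treated level with ATRA (log2 fold change -0.71 ± 0.0452, SE, edgeR adjusted p = 1.84e-19) and to 79.2% with CDK4/6i (-0.34 ± 0.0440, edgeR adjusted p = 5.33e-09). With both drugs it fell to 35.2% (-1.51 ± 0.0513, edgeR adjusted p = 7.43e-31), below either drug alone (-0.79 ± 0.0534 against ATRA and -1.17 ± 0.0521 against CDK4/6i). The fall with both drugs was larger on the log2 scale than the sum of the single-drug falls, with an interaction of -0.46 ± 0.0695 (edgeR adjusted p = 2.10e-07), which was -0.78 with library size alone. All these calls held under each alternative scaling, filter and left-out library that was run.

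UBN1 (chr16:4847481-4882401, hg38, + strand), the subunit that contacts H3.3 in the HIRA complex, was at 93.6, 88.6 and 89.2 CPM in non-treated libraries, 71.7, 71.0 and 70.2 with ATRA, 73.3, 66.1 and 70.2 with CDK4/6i, and 61.2, 63.3 and 64.0 with CDK4/6i+ATRA. ATRA and CDK4/6i libraries overlapped each other, below all non-treated and above all CDK4/6i+ATRA libraries. UBN1 fell to 78.5% with ATRA (log2 fold change -0.35 ± 0.0468, SE, edgeR adjusted p = 5.25e-09), to 77.3% with CDK4/6i (-0.37 ± 0.0468, edgeR adjusted p = 2.04e-09) and to 69.5% with both (-0.53 ± 0.0502, edgeR adjusted p = 1.99e-13). The further fall was -0.18 ± 0.0514 against ATRA and -0.15 ± 0.0513 against CDK4/6i, the latter not called without CDK4/6i replicate 1 (-0.11). UBN1 fell more with library size alone (-0.79 against non-treated cells, -0.48 against ATRA and -0.43 against CDK4/6i), and with no filter the last 2 values were -0.27 and -0.26. The interaction was positive (0.20 ± 0.0696, edgeR adjusted p = 0.0162), the opposite sign to that of HIRA, but negative and not called with library size alone (-0.12) and not called with DESeq2 (0.17), with no filter (0.11) or without non-treated replicate 1 (0.16) or CDK4/6i replicate 2 (0.15).

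UBN2 (chr7:139231237-139330428, hg38, + strand), the paralogue of UBN1, was at 26.3, 23.0 and 25.96 CPM in non-treated libraries, 24.5, 24.9 and 23.1 with ATRA, 21.8, 24.1 and 25.2 with CDK4/6i, and 29.7, 27.4 and 25.3 with CDK4/6i+ATRA. Non-treated libraries overlapped those of every treated group, and no drug gave a call against them, with log2 fold changes of -0.05 for ATRA (95% interval -0.21 to 0.10), -0.08 for CDK4/6i (-0.24 to 0.07) and 0.13 for both (-0.04 to 0.29, and -0.14 with library size alone). CDK4/6i+ATRA was higher than CDK4/6i alone (0.21 ± 0.0813, SE, edgeR adjusted p = 0.0173) and than ATRA alone (0.18 ± 0.0813, edgeR adjusted p = 0.0436), with an interaction of 0.26 ± 0.112 (edgeR adjusted p = 0.0446). With library size alone these 3 values were -0.07, -0.12 and -0.05, none called. The first was not called without CDK4/6i replicate 1 (0.16) or CDK4/6i+ATRA replicate 1 (0.15), or with no filter (0.11). The second was called in only 2 of 12 fits that left out 1 library, those without CDK4/6i replicate 1 or CDK4/6i+ATRA replicate 3 (range over all 12, 0.12 to 0.24), and it was not called with DESeq2 or its size factors (both 0.17), with no filter (0.09) or with only the groups compared (0.11). The interaction was called in 3 of them, without non-treated replicate 2, CDK4/6i replicate 3 or CDK4/6i+ATRA replicate 3 (range over all 12, 0.20 to 0.32), and it was not called with DESeq2 or its size factors (both 0.24) or with no filter (0.18).

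CABIN1 (chr22:24011304-24178628, hg38, + strand), a further HIRA complex subunit that is also known as a calcineurin inhibitor, was at 105, 111 and 114 CPM in non-treated libraries, 99.7, 102 and 101 with ATRA, 93.8, 94.1 and 97.0 with CDK4/6i, and 71.6, 63.3 and 63.9 with CDK4/6i+ATRA. The 4 groups did not overlap, with the single-drug libraries close below the non-treated ones and the CDK4/6i+ATRA libraries well below both. CABIN1 fell to 60.0% with both drugs (log2 fold change -0.74 ± 0.0492, SE, edgeR adjusted p = 6.45e-19) against 86.1% with CDK4/6i (-0.22 ± 0.0446, edgeR adjusted p = 4.59e-05) and 91.6% with ATRA (-0.13 ± 0.0444, edgeR adjusted p = 0.0104). The ATRA call was lost with DESeq2 (-0.09), its size factors (-0.09), library size alone (-0.09), only the groups compared (-0.08) or without non-treated replicate 3 (-0.10). The interaction of -0.39 ± 0.0668 (edgeR adjusted p = 1.92e-06) was negative, as for HIRA, and -0.71 with library size alone. Among the HIRA complex genes, HIRA, UBN1 and CABIN1 were thus lower with both drugs under each scaling, whereas UBN2 was not called and changed sign with library size alone.

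**Figure D3:**
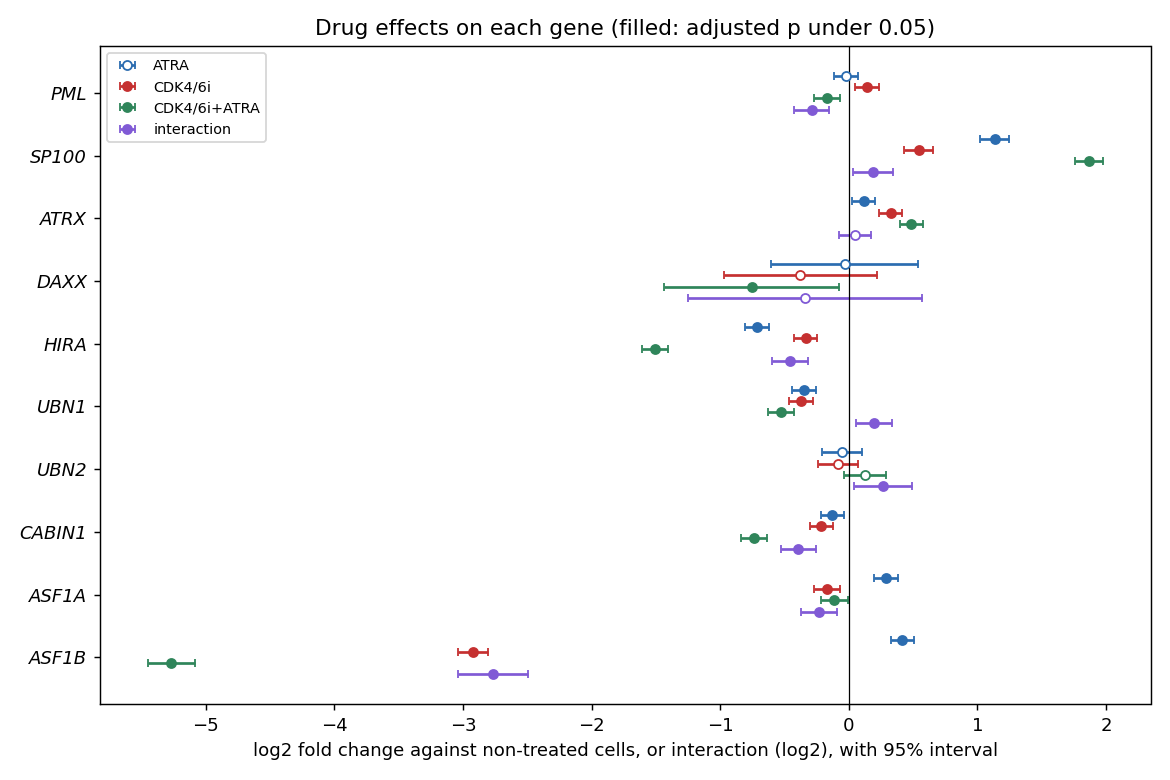
Log2 fold changes of the 10 genes with ATRA, CDK4/6i and CDK4/6i+ATRA compared to the non-treated cells, and the interaction, each with its 95% interval, filled where the edgeR adjusted p was under 0.05. The ASF1B values with CDK4/6i (-2.92) and CDK4/6i+ATRA (-5.27) lie far from those of the other genes, the DAXX intervals are the widest, and the positive interactions of SP100, UBN1 and UBN2 change sign with library size alone.

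ASF1B (chr19:14119512-14136589, hg38, - strand), the ASF1 paralogue tied to proliferation, had the largest differences of the group. ASF1B was at 102, 100.02 and 99.7 CPM in non-treated libraries, 131, 137 and 135 with ATRA, 13.8, 13.6 and 12.3 with CDK4/6i, and 2.47, 2.32 and 2.97 with CDK4/6i+ATRA. The 4 groups did not overlap, with ATRA libraries above and both groups given CDK4/6i far below the non-treated ones. ASF1B rose 1.34-fold with ATRA (log2 fold change 0.42 ± 0.0440, SE, edgeR adjusted p = 7.53e-12). It fell to 13.2% of its non-treated level with CDK4/6i (-2.92 ± 0.0594, edgeR adjusted p = 1.86e-39) and to 2.59% with CDK4/6i+ATRA (-5.27 ± 0.0906, edgeR adjusted p = 1.27e-43), where 27, 26 and 36 counts remained. ASF1B was thus higher with ATRA alone and lower with ATRA beside CDK4/6i, where CDK4/6i+ATRA stood at 19.6% of CDK4/6i (-2.35 ± 0.130, edgeR adjusted p = 5.90e-22). The interaction was -2.77 ± 0.137 (edgeR adjusted p = 5.98e-23), and these calls held under each alternative that was run.

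ASF1A (chr6:118894152-118909171, hg38, + strand), the paralogue that passes H3.3 to HIRA, was at 74.0, 75.1 and 71.8 CPM in non-treated libraries, 86.3, 94.0 and 89.1 with ATRA, 68.3, 63.9 and 64.0 with CDK4/6i, and 70.3, 65.7 and 68.3 with CDK4/6i+ATRA. ATRA libraries were the highest, and the groups given CDK4/6i overlapped each other just below the non-treated libraries. ASF1A rose 1.22-fold with ATRA (log2 fold change 0.29 ± 0.0471, SE, edgeR adjusted p = 5.15e-07) and fell to 88.9% with CDK4/6i (-0.17 ± 0.0485, edgeR adjusted p = 0.00251). CDK4/6i+ATRA was lower than ATRA alone (-0.40, 95% interval -0.50 to -0.30, edgeR adjusted p = 8.51e-10), and the interaction was -0.23 ± 0.0697 (edgeR adjusted p = 0.00465), values of -0.71 and -0.55 with library size alone. The fall with CDK4/6i+ATRA compared to the non-treated cells was -0.11 ± 0.0511 (edgeR adjusted p = 0.0400), and it was larger and called with library size alone (-0.38) and with no filter (-0.22). It was not called with DESeq2 or its size factors (both -0.09), with at least 10 counts in every library (-0.08), with only the groups compared (-0.11), or without non-treated replicate 1 (-0.12) or 2 (-0.11) or CDK4/6i+ATRA replicate 2 (-0.09) or 3 (-0.12). The difference between CDK4/6i+ATRA and CDK4/6i was not called (0.06), and with library size alone it was negative and called (-0.22). ASF1A shares 371 bases of exon with MCM9 on the opposite strand, and MCM9 had 3318 counts against 14116 for ASF1A over all libraries. MCM9 was 1.57-fold higher with CDK4/6i+ATRA than in non-treated cells (0.65 ± 0.0963, edgeR adjusted p = 3.76e-08, and 0.38 with library size alone). The paper names a directional library kit, but strand use in counting is not given in the sources used here. The part of MCM9 reads in the ASF1A counts was not tested.

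Per kb of exon on the primary chromosome, ASF1B exceeded ASF1A in non-treated cells (59.5 ± 0.739 against 30.3 ± 0.685 CPM per kb, SD, n = 3) and with ATRA (79.5 ± 1.73 against 36.9 ± 1.60). The order was the opposite with CDK4/6i (7.85 ± 0.472 against 26.9 ± 1.03 CPM per kb) and with CDK4/6i+ATRA (1.53 ± 0.203 against 28.0 ± 0.948). ASF1B thus made up 66.3% ± 0.487 (SD, n = 3) of the summed ASF1A and ASF1B level per kb in non-treated cells, and 68.3% ± 0.497, 22.6% ± 0.828 and 5.19% ± 0.622 in the ATRA, CDK4/6i and CDK4/6i+ATRA groups. With the deposited length, in which ASF1B is counted again on a fix patch, these shares were 49.6%, 51.9%, 12.7% and 2.67%, and the non-treated order of the paralogues turned, with overlapping libraries (ASF1B at 30.2, 29.6 and 29.5 and ASF1A at 30.4, 30.8 and 29.5 CPM per kb). The deposited length was the planned one, and the primary length was chosen after seeing the data. Whether the listing on a fix patch lowered the ASF1B counts, and with them its share, was not tested. The libraries of the groups given CDK4/6i did not overlap those of the other groups on either scale.

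**Figure D4:**
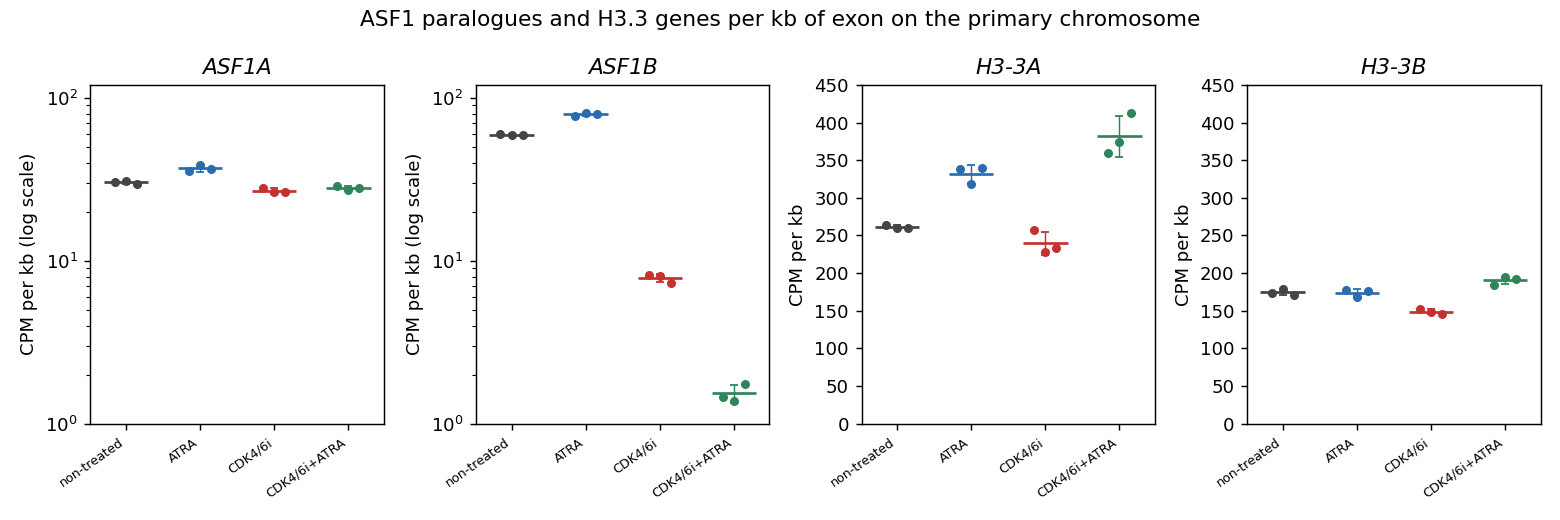
CPM per kb of exon on the primary chromosome for ASF1A and ASF1B (log axes) and for the H3.3 genes H3-3A and H3-3B (linear axes from 0), in each library (points) with group mean and SD. ASF1A stayed between 26.3 and 38.6 CPM per kb in all libraries, while ASF1B ranged from 81.1 with ATRA to 1.37 with CDK4/6i+ATRA.

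Levels of the 10 genes per kb of primary-chromosome exon were also put in order, leaving out DAXX for its contigs. ASF1B, also listed on a fix patch, and CABIN1, partly listed on an alternate contig, were kept. Whether these listings lowered their counts was not tested. In non-treated cells ASF1B (59.5 CPM per kb), HIRA (39.7) and ASF1A (30.3) were highest, followed by CABIN1 (13.6), UBN1 (12.5), PML (12.1), ATRX (8.48), SP100 (4.14) and UBN2 (1.57). Of neighbours in this order, UBN1 and PML overlapped between libraries. With CDK4/6i+ATRA the order was ASF1A (28.0 CPM per kb), SP100 (15.1), HIRA (14.0), ATRX (11.9), PML (10.8), UBN1 (8.70), CABIN1 (8.19), UBN2 (1.72) and ASF1B (1.53). Here SP100 overlapped HIRA, UBN1 overlapped CABIN1 and UBN2 overlapped ASF1B. ASF1B moved from first to last of these 9 genes and SP100 from eighth to second. With the deposited length, ASF1B (29.5 to 30.2 CPM per kb) was below HIRA and overlapped ASF1A in non-treated cells, and it was last with CDK4/6i+ATRA on both lengths.

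The genes whose pattern over the 12 libraries was most like that of SP100, HIRA and ASF1B were found among 9291 candidates with a mean of at least 5 CPM by the root mean square difference in centred log2 CPM. For SP100 they were SKAP2 (0.0613), ARAP1 (0.0777) and LPAR2 (0.0783). For HIRA they were NUDCD3 (0.0634), SMARCC1 (0.0782) and PPIL1 (0.0799). For ASF1B they were CDCA2 (0.130), KIF14 (0.1495) and DIAPH3 (0.173). CDCA2, for example, averaged 30.6 CPM in non-treated cells and 38.0, 3.99 and 0.698 CPM in the ATRA, CDK4/6i and CDK4/6i+ATRA groups, beside 101, 134, 13.3 and 2.59 CPM for ASF1B.

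The cargo of these chaperones is encoded by H3-3A and H3-3B, which make the same protein, and by the H3.3-like H3-5. H3-3A was at 393, 389 and 388 CPM in non-treated libraries, 505, 475 and 506 with ATRA, 383, 339.9 and 348 with CDK4/6i, and 536, 558 and 615 with CDK4/6i+ATRA. H3-3B was at 471, 484 and 462 CPM in non-treated libraries, 479.6, 455 and 478 with ATRA, 412, 399.9 and 393 with CDK4/6i, and 499, 525 and 519 with CDK4/6i+ATRA. Libraries given both drugs were the highest and those given CDK4/6i alone the lowest for both genes. With CDK4/6i+ATRA, H3-3A rose 1.46-fold over non-treated cells (log2 fold change 0.55 ± 0.0436, SE, edgeR adjusted p = 4.11e-16, and 0.28 with library size alone). The H3-3B difference was 0.12 ± 0.0379 (edgeR adjusted p = 0.00269) and turned to -0.14, also called, with library size alone. With CDK4/6i alone both fell (H3-3A -0.13, edgeR adjusted p = 0.0120, and H3-3B -0.23, edgeR adjusted p = 6.24e-07). H3-3A rose with ATRA alone (0.34, edgeR adjusted p = 9.98e-10), H3-3B was not called there (-0.00380, 95% interval -0.08 to 0.07), and H3-5 had 13 to 34 counts per library, with only the difference between CDK4/6i+ATRA and CDK4/6i called (1.02 ± 0.324, edgeR adjusted p = 0.00404). Against ATRA alone, CDK4/6i+ATRA was higher for H3-3A (0.20) and H3-3B (0.13), but lower with library size alone (-0.10 and -0.18). With no filter, 1 of these 3 genes was higher with CDK4/6i+ATRA than in non-treated cells, in place of 2. The same counts held against ATRA alone.

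The genes around the 10 were counted in lists compiled from general knowledge, each read beside all tested genes, whose median log2 fold change with CDK4/6i+ATRA compared to the non-treated cells was 0.02 and of which 41.0% were higher and 40.7% lower. Of other PML body residents, 16 of 17 were tested, with 10 higher and 5 lower (median 0.39, and 0.13 with library size alone and 0.17 with no filter). HIPK2, a kinase of the bodies, rose from 31.6 ± 2.64 to 441 ± 10.8 CPM (log2 fold change 3.80), SP140, a relative of SP100, from 5.79 ± 0.442 to 32.4 ± 1.38 (2.48), and the helicase BLM fell from 86.4 ± 2.30 to 4.29 ± 0.872 (-4.32, with SD of n = 3 each). Beside SP100, of 26 interferon-responsive genes 19 had enough counts to be tested, of which 17 were higher (median 2.02, and 1.75 with library size alone), and with ATRA alone 17 were higher too (32.1% of all tested genes) with a median of 1.97. These values differed with no filter. The filter keeps genes with few non-treated counts that are high in a treated group. Dropping it also changes the genes that set the TMM factors, and these parts were not separated. With no filter, an alternative added for the lists after seeing the data, 25 of the 26 had counts, and 18 were higher and 2 lower with both drugs (BST2 and USP18, where 19.8% and 21.4% of 28097 genes were) with a median of 1.52. With ATRA alone 18 were then higher and 1 lower (USP18), where 15.1% and 16.9% of 28097 genes were, with a median of 1.72. With CDK4/6i alone and the filter, 8 were higher and 1 lower (28.3% and 27.9% of all tested genes). With no filter (12.52% and 12.97% of 28097 genes), 8 of the interferon-responsive genes were again higher and 1 lower. Their median was 0.53 with the filter, beside 0.54 for SP100, but 0.35 without it, and it ranged from 0.13 to 0.54 over left-out libraries, with the lowest value without CDK4/6i replicate 2. MX2 rose by 5.63, TRIM22 by 3.20 and IFI6 by 2.95 on the log2 scale with both drugs. PML, which is also inducible by interferon, was lower there (-0.17).

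Of the SUMO machinery that modifies PML and SP100, all 20 genes were tested. With CDK4/6i+ATRA 6 were higher and 12 lower, where 41.0% and 40.7% of all tested genes were. Their median was -0.23, and -0.50 with library size alone and -0.34 with no filter. Both subunits of the SUMO-activating enzyme were among the lower ones, SAE1 (315 ± 14.0 to 85.5 ± 4.89 CPM, log2 fold change -1.88) and UBA2 (347 ± 13.2 to 168 ± 4.16, -1.05, with SD of n = 3 each), while the SUMO-targeted ubiquitin ligase RNF111 rose (1.16). The list of replication-coupled H3-H4 chaperones also holds partner genes, such as the kinases TLK1 and TLK2 and the importin IPO4. Beside ASF1B, 13 of its 14 genes were lower and 1 higher, with a median of -2.43 against -5.27 for ASF1B and -0.11 for ASF1A. CHAF1B of the chromatin assembly factor fell from 31.8 ± 2.42 to 0.223 ± 0.311 CPM (0 to 7 counts per library), TONSL fell by 5.34 and MCM2 by 4.78 on the log2 scale. Of other histone chaperones, 14 of 16 were lower and 2 higher (median -2.02, and -2.29 with library size alone and -2.13 with no filter). The largest falls were those of HJURP (-6.82), the HIRA-binding HIRIP3 (-3.62) and nucleolin NCL (-2.55). Of 13 tested heterochromatin partners of ATRX and DAXX, 3 were higher and 8 lower (median -0.69, and -0.96 with library size alone and -1.01 with no filter). Among the lower ones were SUV39H1 (-3.76), SUV39H2 (-2.31) and CBX1 (-2.08), whereas ATRX was higher (0.49).

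**Figure D5:**
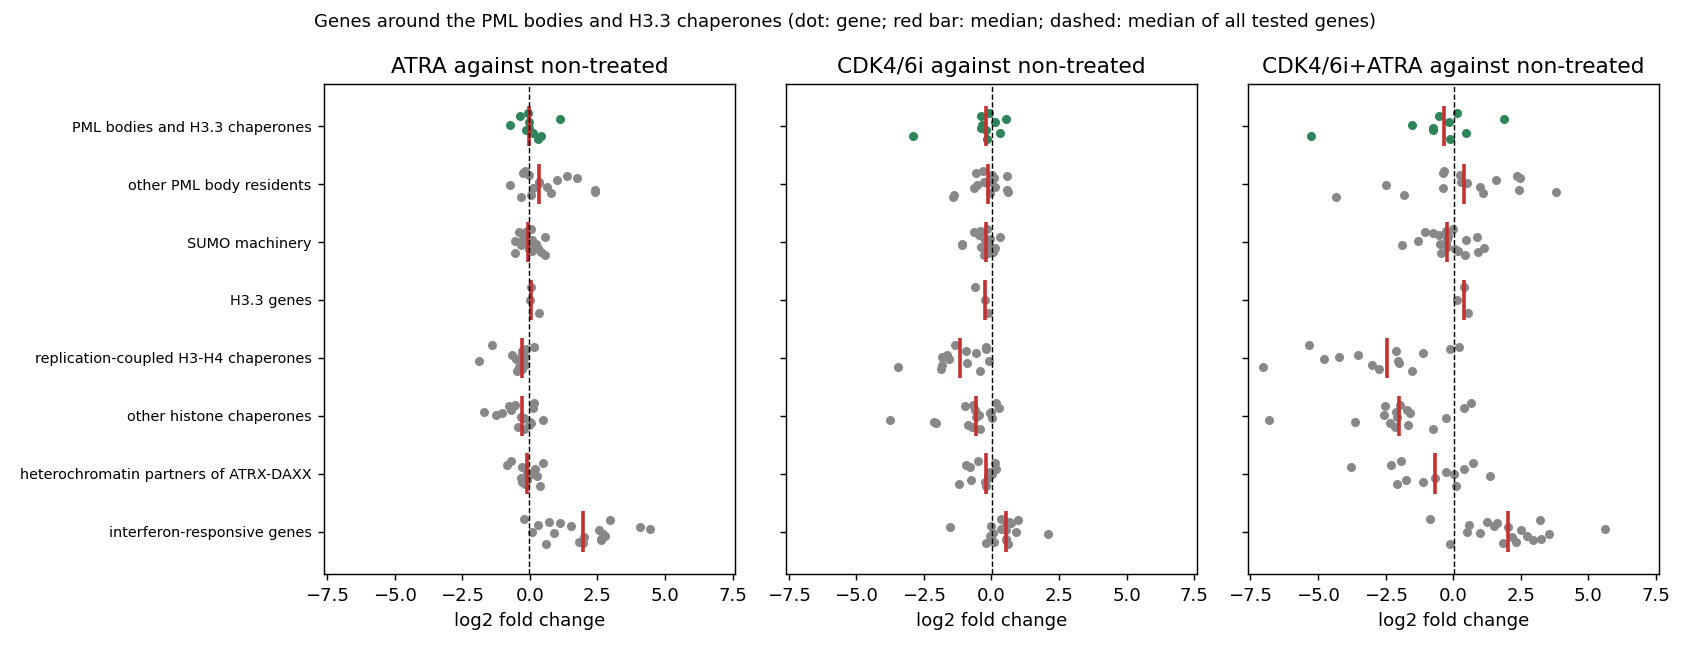
Log2 fold changes against non-treated cells for each tested gene (dots) of the 10 genes (green) and of the 7 lists (grey), with the list median (red bar) and the median of all tested genes (dashed line), for ATRA, CDK4/6i and CDK4/6i+ATRA. With CDK4/6i+ATRA the medians were 2.02 for interferon-responsive genes and -2.43 for replication-coupled H3-H4 chaperones (1.75 and -2.70 with library size alone, and 1.52 and -2.54 with no filter).

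The same lists in the single-drug groups are given beside the 10 genes for comparison, all against the same non-treated libraries. With ATRA alone all tested genes had a median of -0.03 (0.01 with library size alone), and the medians were 0.34 for other PML body residents, -0.06 for the SUMO machinery (-0.02 with library size alone), -0.29 for replication-coupled H3-H4 chaperones, -0.28 for other histone chaperones and -0.11 for heterochromatin partners (-0.07 with library size alone). ASF1B rose with ATRA while 13 of the 14 genes of the replication-coupled list were lower (35.5% of all tested genes). With CDK4/6i alone the 10 genes had a median of -0.19 against 0.02 for all tested genes. All 14 genes of the replication-coupled list were lower (27.9% of all tested genes, median -1.15). There the medians were -0.12 for other PML body residents (-0.19 with no filter), -0.20 for the SUMO machinery, -0.59 for other histone chaperones and -0.22 for heterochromatin partners.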

How the data were processed

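The deposited table holds raw gene counts that the authors made from the reads, whole numbers without normalization. Per the submitters' processing notes and the paper, reads were trimmed with Trimmomatic 0.33 and aligned with STAR 2.7.11a to hg38 with the NCBI RefSeq annotation. The paper names RSEM for counting, whereas the table has the layout that featureCounts writes, and the authors tested with DESeq2. Groups and replicate numbers came from the labels. Results for 1 marker list are not reported here.

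The 10 genes were taken by symbol. filterByExpr, run with the 4 groups, kept 13318 of 59251 genes. Under R 4.3.3, edgeR 4.0.16 supplied TMM factors and quasi-likelihood F tests, fitted to all 12 libraries with 1 mean per group (8 residual degrees of freedom). P-values were adjusted by the Benjamini-Hochberg method across the tested genes, with calls under 0.05. The SE is the log2 fold change divided by the square root of F, and the common dispersion gave a biological coefficient of variation of 3.70%. The code was run first on simulated counts. Libraries of a group differed by more than sampling noise (chi-square per degree of freedom 1.83 to 6.49 between pairs). The 3-count floor covers counting error only. Levels per kb used exon bases on the primary chromosome.

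Alternatives were no filter or a filter asking for at least 10 counts in every library, scaling by DESeq2 size factors or by library size alone, testing with DESeq2 1.42.0, fitting only the groups compared, the replicate number as a block, shares with no length scaling, and leaving out each library in turn. The genes and lists were chosen with earlier results of these data known. Besides the 10 genes, the H3.3 genes, the markers and genes sharing exon bases, the text names the 3 genes of each list with the largest absolute log2 fold change between CDK4/6i+ATRA and non-treated cells, among those called with a mean of at least 5 CPM, and, for each of the 10 genes whose group means of log2 CPM span at least 1, the 3 genes with the most similar pattern. Other genes with exon overlaps had 16 counts or fewer. RPS18 and RPL3 were chosen after their values were seen. Plots used matplotlib 3.10.9 under python 3.11.15.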

Additional observations from a re-analysis of the deposited data

Results flagged for a closer look

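For 8 of the 10 genes the log2 effect of ATRA differed between cells with and without CDK4/6i, by the interaction test of edgeR over all tested genes, of which 24.5% had a positive and 27.0% a negative called interaction. The interaction was negative for ASF1B (-2.77), HIRA (-0.46), CABIN1 (-0.39), PML (-0.29) and ASF1A (-0.23). It was positive for UBN2 (0.26), UBN1 (0.20) and SP100 (0.19), and these 3 values change sign with library size alone, with none of the 3 called there. For ASF1B and ASF1A, the ATRA effect without CDK4/6i was a rise (0.42 and 0.29), while beside CDK4/6i it was -2.35 for ASF1B and 0.06, not called, for ASF1A.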

How the results depend on the processing

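The signs of SP100, HIRA, UBN1, CABIN1 and ASF1B in the 5 comparisons between groups were the same under every alternative run. With library size alone, the values that changed sign were UBN2 in the CDK4/6i+ATRA group relative to non-treated cells (-0.14), CDK4/6i (-0.0672) and ATRA (-0.12), ATRX (-0.12) and ASF1A (-0.22) against CDK4/6i, and the interactions of SP100 (-0.13), ATRX (-0.27), UBN1 (-0.12) and UBN2 (-0.0537). That setting leaves out the TMM factors, which differ most in the CDK4/6i+ATRA libraries. With no filter, ASF1A against CDK4/6i (-0.0443) and the ATRX interaction (-0.0389) changed sign, and the cause was not tested. The uncalled ATRA effect on PML (-0.02) became 0.00933 with DESeq2, 0.00942 with its size factors, 0.0180 with library size alone, 0.00361 with at least 10 counts in every library and 0.0272 with only the groups compared, and it ranged from -0.0662 to 0.00570 over left-out libraries. That on DAXX (-0.03) became 0.00744 with library size alone and 0.0169 with only the groups compared, and ranged from -0.17 to 0.11. At least 10 counts in every library leaves no value for DAXX, and an interaction cannot be fitted from 2 groups alone.

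Of the 10 genes, 8 had a called interaction, where 24.5% of all tested genes had a positive and 27.0% a negative one. With no filter 5 had one, where 8.7% of 28097 genes had a positive and 14.2% a negative one. With DESeq2 the interactions of SP100 (0.17), UBN1 (0.17) and UBN2 (0.24) were not called. Over left-out libraries 5 to 8 of the 10 genes had a called interaction, 5 without non-treated replicate 1 or CDK4/6i replicate 2. Those fits called an interaction for 6503 to 6693 genes in all. The ASF1B share with the deposited length was 49.6%, 51.9%, 12.7% and 2.67% (non-treated, ATRA, CDK4/6i, CDK4/6i+ATRA), and ranged over left-out libraries from 49.4% to 49.9%, 51.7% to 52.2%, 12.5% to 13.01% and 2.48% to 2.76%. Without length scaling it was 57.7%, 59.9%, 16.8% and 3.66%. With the primary length, an alternative chosen after seeing the data, it was 66.3%, 68.3%, 22.6% and 5.19%, with 1689 in place of 3378 bases for ASF1B.

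Replicates with the same number did not deviate together (18 pairs, r from -0.08 to 0.04), and 2 of 12 libraries correlated best with their own number. With the replicate number as a block, 6775 of 13318 genes had a called interaction, where the fit without it called 3258 positive and 3594 negative ones. Between CDK4/6i+ATRA and ATRA the block fit called 9213 of 13318 genes, where the fit without it called 4920 higher and 4371 lower. Among the 10 genes the block left 7 called interactions in place of 8 and 8 calls in place of 9 between CDK4/6i+ATRA and ATRA, in each case without UBN2 (0.26 and 0.18).

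The DAXX values rest on 8 to 41 counts per library and on a gene listed on several contigs. Only 1 cell line and 1 time point were measured, no protein was measured, and a small fold change such as that of PML depends on the scaling.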
